A study of Arabidopsis thaliana with 4 samples.

Results

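The short arm of chromosome 4 carries the best-known inversion between the Arabidopsis accessions Columbia and Landsberg erecta (Ler). In Columbia the inverted segment brought repeat-rich DNA from beside the centromere out into the arm, where it forms a heterochromatic knob, and Ler lacks that knob. Heterochromatin is rich in transposons and is packed into dense arrays of nucleosomes. The interval described here is the stretch of chromosome 4 from position 1550001 to position 2750000 of the deposited nucleosome lists. These 1200 kb were chosen as roughly the interval of the inversion, whose place in these coordinates was not checked. The members of the interval are the nucleosome calls with a position inside these bounds, chosen by position, with no measured value of a call in the rule. They numbered 12712 of the 1253289 calls in all 4 libraries together, or 1.01%.

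The libraries were made from inflorescences with unopened buds of Arabidopsis thaliana, 2 from top1a-2 plants and 2 from Ler plants, and the labels give the ecotype Ler for both genotypes. By these labels no library comes from Columbia, so values in the interval do not describe a knob. The allele top1a-2 is a mutation of TOP1α, a DNA topoisomerase I, an enzyme that nicks and reseals DNA to relax supercoils. Nuclei were digested with micrococcal nuclease, which cuts the linker DNA between nucleosomes, and the DNA left at mononucleosome length was sequenced, so the study compared nucleosome density with and without intact TOP1α. The labels do not say whether libraries of a genotype came from separate pools of plants, so p-values measure only the spread between these libraries, which may be technical.

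The interval held 3296 and 3177 calls in top1a-2 replicates 1 and 2, against 3261 and 2978 calls in Ler replicates 1 and 2. The whole lists held 335395 and 315609 calls in the top1a-2 libraries, against 315744 and 286541 calls in the Ler libraries. Every call comes with a fuzziness, which is how far its position varied in bp, a size, which is the length of DNA it protects in bp, a confidence score and votes from the forward and reverse strands. The lists give no read counts, so the read depth behind a call is unknown. All 4 libraries were called on the same sequence, so a repeat or a poorly mapped stretch recurs in each of them, and its part in the results below was not tested. The genome build was not given in the sources used here, so no gene annotation could be laid over the interval, and the breakpoints of the inversion were not placed in these coordinates.

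The calls in the interval were first set against the long arm of chromosome 4, taken as all calls from position 6500001 on, which is mostly gene-rich euchromatin. The interval was slightly sparser in calls than the long arm, and the mean fuzziness of its calls was slightly lower. More of its calls were close to nucleosome length, and it held several times as many stretches without a call. Calls per kb were 2.75 and 2.65 in the interval in top1a-2, and 2.72 and 2.48 in Ler. In the long arm they were 3.01 and 2.78 in top1a-2, and 2.78 and 2.49 in Ler. The ratio of interval to long arm averaged 0.960 and lay below 1 in 4 of 4 libraries. With 4 libraries the exact paired permutation test over 16 sign flips cannot go below a two-sided p of 0.125, which was the value here (0.205 after Benjamini-Hochberg adjustment over 18 measures). All differences from the long arm given below with the same sign in 4 of 4 libraries have these same p-values, so none passed the threshold of 0.05.

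Narrow calls, whose fuzziness was at most 25 bp, made up 14.1% and 11.9% of the interval's calls in top1a-2, and 11.4% and 10.4% in Ler. In the long arm they made up 10.5% and 7.08% in top1a-2, and 5.64% and 4.62% in Ler. Within every library the interval lay above the long arm, by 4.99 percentage points on average. Mean fuzziness averaged 37.8 ± 0.622 bp in the interval and 38.9 ± 0.959 bp in the long arm (SD, n = 4 libraries), a difference of -1.12 bp with the same sign in 4 of 4. The difference in narrow calls was 1.47 points when calls below the lower quartile of score of each library were left out.

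Calls of 130 to 160 bp, the range around a nucleosome core particle, made up 57.1% and 58.3% of the interval's calls in top1a-2, and 58.2% and 58.9% in Ler. In the long arm the shares were 51.9% and 54.6% in top1a-2, and 46.6% and 50.8% in Ler. All 4 interval values lay above all 4 long-arm values, with a mean difference of 7.15 percentage points. The excess was not found along the whole interval. The first 400 kb averaged 51.0%, like the long-arm mean of 51.0%, and the remaining 800 kb averaged 61.5%. It was not particular to the interval either, since the 300 kb before it averaged 59.7% in top1a-2 and 62.7% in Ler. Both tails differed less in percentage points. Calls of over 200 bp made up 2.71% ± 0.426 of the calls in the interval and 2.28% ± 0.640 in the long arm, higher in 3 of 4 libraries. Calls under 100 bp made up 5.63% ± 0.109 of the calls in the interval and 3.31% ± 0.906 in the long arm, higher in 4 of 4 libraries. The short calls were weak in the interval. Their median score was 0.385 and 0.288 in top1a-2 and 0.359 and 0.252 in Ler, against 0.548 and 0.487 in top1a-2 and 0.885 and 0.952 in Ler in the long arm. Without calls below the lower quartile of score, the share of short calls no longer exceeded that of the long arm, with a difference of -0.25 percentage points.

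Neighbouring calls 120 to 250 bp apart lay slightly closer together in the interval than in the long arm. Whether they formed arrays was not tested. Among neighbours 120 to 250 bp apart, the interval had a median distance of 203 and 207 bp in top1a-2, against 206 and 203 bp in Ler. The long arm had 207 and 209 bp in top1a-2, against 212 and 210 bp in Ler. The distance was shorter in the interval in 4 of 4 libraries, with a mean difference of -4.88 bp. Neighbours under 200 bp apart were 13.7% and 10.6% of neighbouring pairs in the interval in top1a-2, and 11.7% and 9.67% in Ler. In the long arm they were 12.0% and 8.77% in top1a-2, and 7.54% and 6.17% in Ler. The excess over the long arm was 1.68 and 1.87 percentage points in top1a-2 and 4.21 and 3.50 points in Ler.

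**Figure D1:**
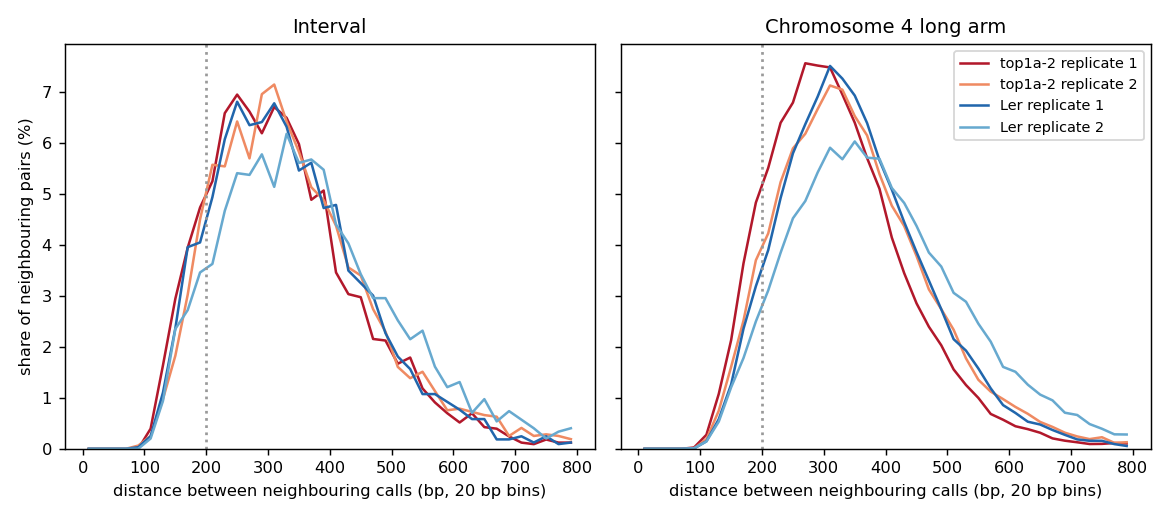
Share of neighbouring pairs of calls (percent, vertical axis) by the distance between them (bp, in bins of 20 bp, horizontal axis) in the interval and in the chromosome 4 long arm, with 1 line per library. The dotted line marks 200 bp, and the shares to its left are between 9.67% and 13.7% in the interval and between 6.17% and 12.0% in the long arm.

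Stretches without a call set the interval apart from the long arm, though not from the 300 kb on either side of it, described below. Gaps of over 1000 bp between neighbouring calls numbered 52.5 and 50 per Mb of the interval in top1a-2, and 45.8 and 48.3 per Mb in Ler. In the long arm they numbered 10.7 and 10.2 per Mb in top1a-2, and 9.55 and 12.5 per Mb in Ler. Every interval value lay above every long-arm value, and the interval held 38.4 more per Mb on average. Counted over all libraries together, 47 stretches of more than 1000 bp held no call in any library, and they covered 6.91% of the interval, against 1.91% of the long arm. The longest ran from 2109917 to 2114790 (4874 bp), from 2640846 to 2644910 (4065 bp) and from 2590197 to 2593541 (3345 bp). What lies in these stretches was not tested.

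Low-scoring calls were more common in the interval than in the long arm. Calls below the lower quartile of their library's scores made up 28.8% and 30.6% of the interval in top1a-2, and 31.9% and 32.2% in Ler. In the long arm they made up 23.1% and 24.4% in top1a-2, and 22.4% and 23.4% in Ler. The median score was 0.772 ± 0.0562 in the interval and 0.828 ± 0.0442 in the long arm (SD, n = 4 libraries), lower in 4 of 4, and the difference of -0.0563 turned to 0.0204 without calls below the lower quartile. Calls with unequal votes had forward and reverse votes that differed by a factor of 3 or more. They made up 21.5% ± 4.68 of the interval and 14.2% ± 5.90 of the long arm. The difference of 7.22 percentage points had the same sign in 4 of 4 libraries. In the interval the spread followed the replicate number, with 26.4% and 24.4% in replicate 1 of top1a-2 and Ler, against 18.4% and 16.7% in replicate 2. Mean size over the whole lists did so too, at 144.5 and 144.8 bp against 143.1 and 143.0 bp. The permutation tests of genotype below were not paired by this number.

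The second comparison was with the pericentromere of chromosome 4, taken as the stretch from 3.25 to 4.75 Mb. Knob DNA in Columbia is known to derive from heterochromatin beside the centromere, but its source was not placed in these coordinates. The labels name Ler, which lacks the knob, for all 4 libraries. In density, gaps, unusual sizes, narrow calls and unequal votes, the mean of the interval lay between those of the pericentromere and the long arm. Calls per kb were 2.65 ± 0.119 in the interval and 2.31 ± 0.0655 in the pericentromere (SD, n = 4 libraries), a mean ratio of 1.15, above 1 in 4 of 4 libraries. The pericentromere held 108 and 108 gaps of over 1000 bp per Mb in top1a-2 and 101 and 102 per Mb in Ler, and the difference of interval minus pericentromere was -55.7 per Mb. Calls under 100 bp made up 13.2% ± 1.25 of the pericentromere, with a difference of -7.60 percentage points. The difference was -2.68 points for narrow calls, -3.77 points for calls of over 200 bp and -10.6 points for calls with unequal votes. Each of these had the same sign in 4 of 4 libraries, with an exact paired permutation p of 0.125 (0.173 after adjustment). When calls below the lower quartile of score were left out, the difference in gaps turned round to 29.0 more per Mb in the interval.

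Other measures did not lie between both, or were close to those of the pericentromere. Mean fuzziness, at 37.8 bp, and the median score, at 0.772, were lower in the interval than in the pericentromere, with 38.2 bp and 0.919, and than in the long arm. The difference in mean fuzziness from the pericentromere turned to 0.0101 bp when only calls of 50 to 250 bp were used. Calls of 130 to 160 bp were 14.3 percentage points more common in the interval than in the pericentromere and also more common than in the long arm. Calls above the 95th percentile of their library's scores made up 5.86% and 3.90% of the interval in top1a-2 and 5.03% and 3.86% in Ler. In the pericentromere they were 14.9% and 10.1% in top1a-2 and 11.2% and 8.36% in Ler, and the interval was lower in 4 of 4 libraries. The long arm, with 4.23% ± 0.293, differed from the interval by less than the spread between libraries. Close neighbours under 200 bp were as common in the interval as in the pericentromere within the spread, at 11.4% ± 1.71 and 11.4% ± 1.04, and the interval was higher in 2 of 4 libraries. For neighbours 120 to 250 bp apart, the median distance was 204.6 ± 1.97 bp in the interval and 203.4 ± 1.11 bp in the pericentromere, higher in 2 of 4. Calls below the lower quartile of score were 30.9% ± 1.56 of the interval and 28.6% ± 3.65 of the pericentromere, higher in 3 of 4.

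**Figure D2:**
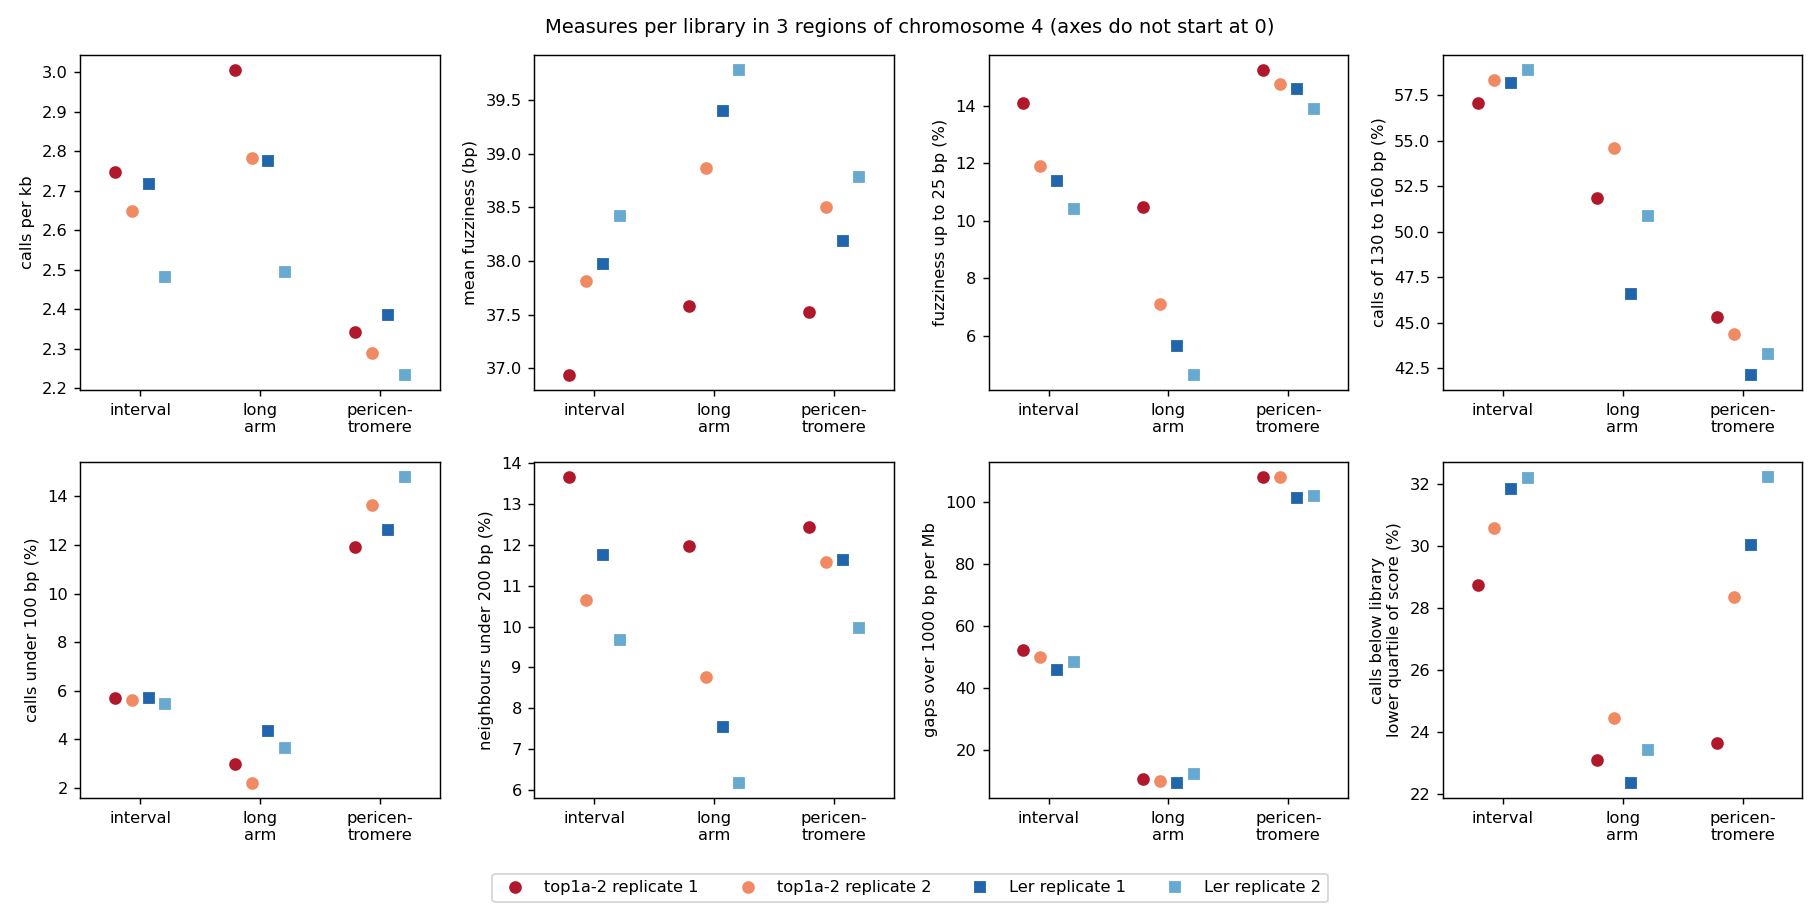
Measures of the nucleosome calls in the interval, the long arm and the pericentromere of chromosome 4, with 1 point per library (circles for top1a-2, squares for Ler) and the unit on each vertical axis, which need not start at 0. The interval lies between both other regions in gaps of over 1000 bp and in calls under 100 bp, and above both in calls of 130 to 160 bp.

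Along its length the interval was uneven. In 24 steps of 50 kb, the mean calls per kb over the 4 libraries ran from 1.88 to 3.09, and the share of calls under 100 bp from 0.726% to 21.6%. Each step was ranked among 2340 windows of 50 kb from all 5 chromosomes, with percentile 0 for the lowest. The sparsest step began at 1700001, with 1.84 and 1.88 calls per kb in top1a-2, against 2.02 and 1.78 in Ler, at percentile 5.13. Its neighbour at 1650001 had 1.88 and 1.92 calls per kb in top1a-2, against 2.10 and 2.14 in Ler. The third sparsest, at 2600001, averaged 2.33. The densest step began at 2250001, with 3.06 and 3.26 calls per kb in top1a-2, against 3.24 and 2.80 in Ler, at percentile 99.1. It was followed by the steps at 1900001, with a mean of 3.03, and 1950001, with a mean of 2.88.

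The step at 1850001 stood apart in several measures, with a density of 2.60 calls per kb on average, at percentile 19.0. Averaged over the libraries it had the lowest mean fuzziness of the interval, 33.4 and 33.6 bp in top1a-2, against 37.2 and 35.0 bp in Ler, at percentile 0.470. It also had the lowest median score by that average, 0.424 and 0.308 in top1a-2 and 0.414 and 0.295 in Ler, at percentile 2.31. Its calls under 100 bp reached 23.6% and 22.1% in top1a-2 and 23.8% and 16.8% in Ler, and its narrow calls averaged 26.8%, at percentile 98.2. In Ler replicate 1 its mean fuzziness was not the lowest of the interval. The next lowest in both fuzziness and score were the steps at 2550001, with means of 36.2 bp and 0.577, and 2250001, with means of 36.4 bp and 0.607. The densest step was thus also among the lowest in score. The highest median scores were those of the steps at 2200001, with 1.06, 1950001, with 0.997, and 2100001, with 0.989. The highest mean fuzziness was that of the steps at 1950001, with 39.8 bp, 2300001, with 39.4 bp, and 2200001, with 39.2 bp.

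Narrow calls were raised in most steps of the interval, and more so in its first 400 kb. In 15 of the 24 steps their share lay above the 75th percentile of all windows, and in none below the 25th, with a median percentile of 86.8. These 15 were 7 of the 8 steps of the first 400 kb and 8 of the 16 later steps. The median share was 15.6% in the first 8 steps and 9.66% in the later 16. Mean fuzziness lay below the 25th percentile in 16 steps. Calls under 100 bp were patchier. They lay above the 75th percentile in 5 of the 8 steps of the first 400 kb and in 0 of the 16 later steps.

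**Figure D3:**
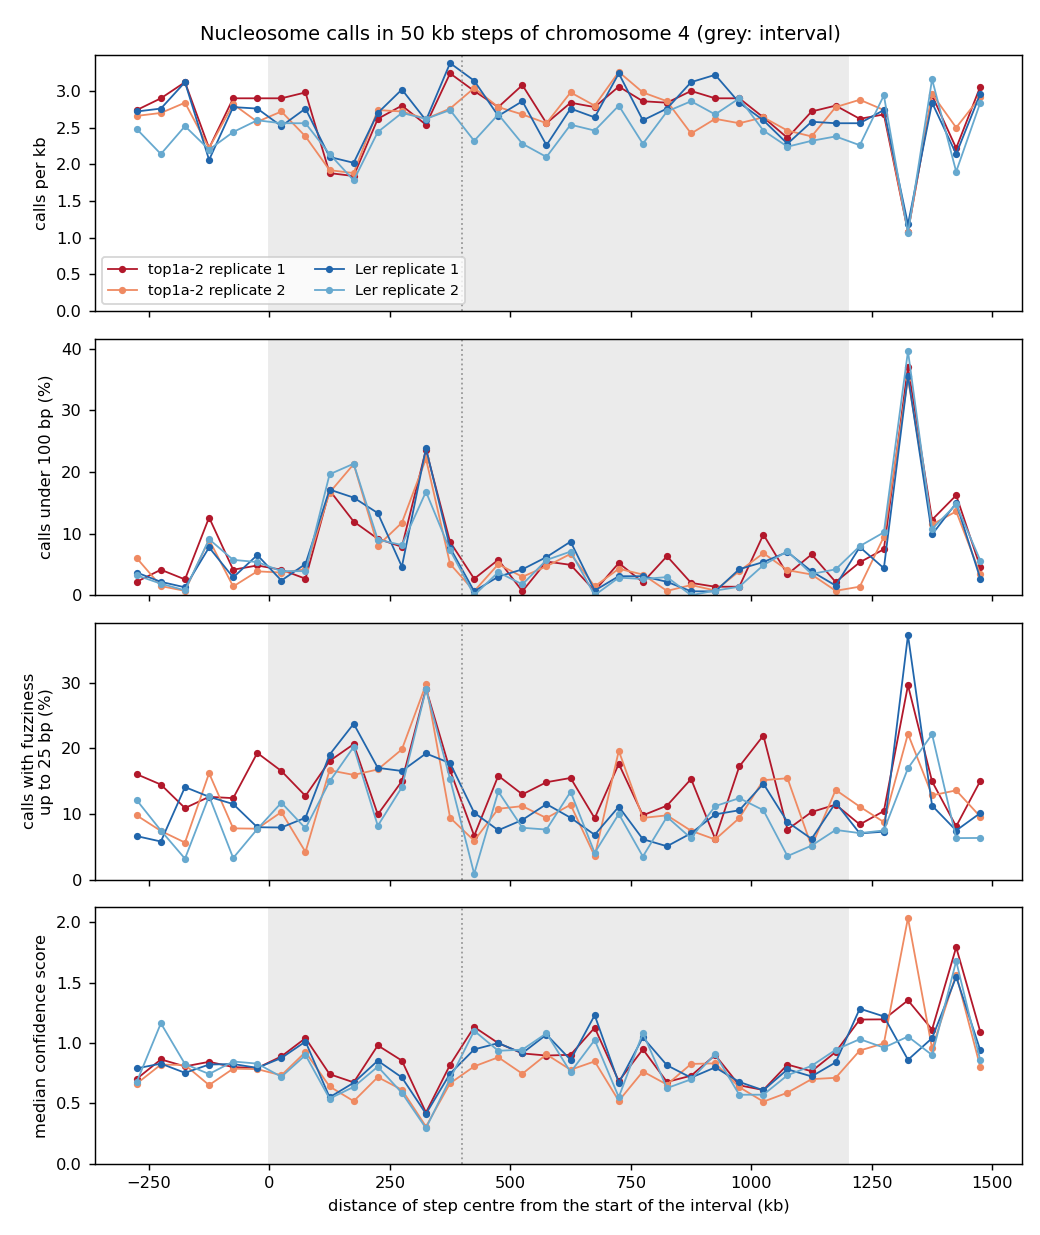
Calls per kb, share of calls under 100 bp, share of calls whose fuzziness was at most 25 bp and median confidence score in steps of 50 kb, by the distance of the step centre from the start of the interval (kb), with 1 line per library. The grey area is the interval and the dotted line marks the end of its first 400 kb, where the share of calls under 100 bp reaches a mean of 21.6% in the step at 1850001.

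Because of this profile, the first 400 kb were set against the remaining 800 kb, a comparison added after the profile was seen, so its tests describe the same data that led to it. The first 400 kb resembled the pericentromere more closely in calls under 100 bp, which were 10.0% and 11% in top1a-2 and 10.7% and 10.6% in Ler. In the remaining 800 kb they were 3.72% and 3.20% in top1a-2 and 3.31% and 2.95% in Ler, close to the long-arm mean of 3.31%. Calls of over 200 bp averaged 4.89% and 1.68% in the 2 stretches, narrow calls 15.9% and 10.1%, and gaps of over 1000 bp 82.5 and 32.5 per Mb. Calls of 130 to 160 bp were the other way round, with 51.0% in the first 400 kb and 61.5% in the remainder. Each difference had the same sign in 4 of 4 libraries, with an exact paired permutation p of 0.125 (0.205 adjusted).

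Much of this contrast came from 3 steps. Without the steps from 1650001 to 1750000 and at 1850001, left out after their values were seen, the difference in gaps was 4.50 per Mb in place of 50.0, and that in calls under 100 bp was 3.26 in place of 7.31 percentage points. The ratio of calls per kb was 0.939 with all steps and turned to 1.02 without them. The excess of narrow calls was 2.97 points without them, in place of 5.81. Without calls below the lower quartile of score, the difference in gaps turned to -11.6 per Mb, while calls under 100 bp were still 4.02 points more common in the first 400 kb.

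The stretches that border the interval differed from each other, but gaps were common in both. Before the interval, gaps of over 1000 bp averaged 50 per Mb in top1a-2 and 41.7 per Mb in Ler. After it they averaged 73.3 per Mb in top1a-2 and 68.3 per Mb in Ler. In the 300 kb before it, calls under 100 bp made up 4.77% and 3.54% in top1a-2 and 3.83% and 4.31% in Ler. In the 300 kb after it, on the side of the centromere, they made up 11% and 9.68% in top1a-2 and 9.85% and 11.9% in Ler. Calls above the 95th percentile of score made up 24.8% and 17.0% after the interval in top1a-2, and 16.4% and 12.0% in Ler. The step at 2850001 in that stretch held 1.10 calls per kb on average, and 36.9% of them were under 100 bp, so sparse stretches did not end at the upper bound of the interval.

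The genotypes were then compared within the interval. Narrow calls were more common and mean fuzziness was lower in top1a-2 than in Ler, but the same held outside the interval, and the density of calls was not distinguishable. The interval averaged 2.70 ± 0.0701 calls per kb for top1a-2, against 2.60 ± 0.167 for Ler (SD, n = 2 each), and the genotypes overlapped. The difference of 0.0975 calls per kb turned to -0.0204 without Ler replicate 2, the library with the fewest calls. Narrow calls averaged 13.0% ± 1.56 in top1a-2 and 10.9% ± 0.684 in Ler, and mean fuzziness 37.4 ± 0.622 bp in top1a-2, against 38.2 ± 0.319 bp in Ler. In both measures the genotypes did not overlap. At 2 libraries a genotype, an exact two-sided permutation over the 6 assignments cannot go below p = 0.333, which was the value of both (0.75 adjusted over 18 measures).

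Some measures overlapped between the genotypes and others did not. Calls under 100 bp made up 5.67% ± 0.0492 in top1a-2 and 5.59% ± 0.163 in Ler, and the median score was 0.773 ± 0.0924 in top1a-2 and 0.771 ± 0.0306 in Ler, with overlap in both. Low-scoring calls, below the lower quartile of the library, averaged 29.7% ± 1.30 in top1a-2 and 32.0% ± 0.241 in Ler without overlap. Gaps of over 1000 bp averaged 51.2 ± 1.77 per Mb in top1a-2 and 47.1 ± 1.77 per Mb in Ler without overlap, and this difference of 4.17 per Mb turned to -0.417 when only calls of 50 to 250 bp were used. The median of the summed votes was 0.123 and 0.120 in top1a-2 and 0.170 and 0.199 in Ler. The long arm showed the same order, with 0.123 and 0.132 in top1a-2 and 0.184 and 0.216 in Ler, so the order was not particular to the interval.

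To remove what a whole library shared, each measure of the interval was taken relative to the long arm of the same library. On this scale the interval was sparser in top1a-2, with 0.914 and 0.951 times the calls per kb of the long arm, against 0.979 and 0.995 times in Ler. The excess of narrow calls over the long arm was 3.62 and 4.82 percentage points in top1a-2, against 5.73 and 5.79 points in Ler. The excess of calls of 130 to 160 bp was 5.21 and 3.73 points in top1a-2, against 11.6 and 8.06 points in Ler. The genotypes did not overlap in any of the 3, with an exact permutation p of 0.333 each, the smallest possible (0.429 adjusted). In all 3 the long arm differed more between the genotypes than the interval did. For narrow calls, the long arm had 10.5% and 7.08% in top1a-2 against 5.64% and 4.62% in Ler. Without calls below the lower quartile of score, the genotype differences in relative density (-0.0101) and in the excess of narrow calls (-0.356 points) shrank and the genotypes overlapped in both, while that in calls of 130 to 160 bp was -8.09 points without overlap.

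The interval was also divided into 3 sections of 400 kb. In the first, narrow calls were 17.0% and 15.4% in top1a-2 and 16.1% and 15.0% in Ler, with overlap, and density averaged 2.53 calls per kb for top1a-2, against 2.54 for Ler. Low-scoring calls averaged 33.6% ± 2.78 in top1a-2 and 38.8% ± 1.41 in Ler in that section, without overlap. In the second section, from 1950001, narrow calls averaged 11.6% ± 1.76 in top1a-2 and 8.42% ± 0.859 in Ler, and density 2.88 ± 0.0106 calls per kb for top1a-2, against 2.60 ± 0.239 for Ler, without overlap in either. Neighbours under 200 bp apart averaged 12.1% ± 2.14 in top1a-2 and 8.90% ± 0.951 in Ler there, also without overlap. In the third section, from 2350001, narrow calls averaged 11.5% ± 1.70 in top1a-2 and 8.83% ± 0.520 in Ler without overlap, while calls per kb overlapped. Section values were not taken relative to the long arm of the same library. There too, narrow calls, density and neighbours under 200 bp apart were on average higher in top1a-2 than in Ler. No section could reach an exact permutation p below 0.333, and the difference between sections in the genotype effect was not tested.

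The 24 steps were also tested within a limma fit on 50 kb windows of all 5 chromosomes, where the calls of each window were divided by the library mean. For calls, 0 of 2345 windows passed an adjusted p of 0.05 (percent called 0), and the lowest adjusted p in the interval was 0.630. At an unadjusted p under 0.05, 6.57% of all windows and 4 of the 24 steps were called. All 4 were lower in top1a-2, a direction in which 3.11% of all windows were called, and none was higher, against 3.45% of all windows. The genotypes did not overlap in 9 of the 24 steps, 3 higher and 6 lower in top1a-2, against 35.7% of all windows (17.4% higher, 18.3% lower), so the share in the interval was close to the background. Before division by the library mean, they did not overlap in 11 of the 24 steps, 10 higher and 1 lower in top1a-2. The direction in the steps therefore depended on the division. The share of all windows before division was not computed, so the count of 11 steps cannot be read as a result about the interval. The lowest p belonged to the step at 2400001, with 3 and 2.42 calls per kb in top1a-2, against 3.12 and 2.86 in Ler, before division by the library mean. Its log2 change was -0.24 ± 0.08 (SE), with an unadjusted p of 0.0021 and a limma adjusted p of 0.630. The step at 1650001 had a log2 change of -0.24 ± 0.10, and the steps at 2450001 and 2500001, next to each other and to 2400001, had -0.19 ± 0.08 and -0.17 ± 0.08. The largest increases without overlap were 0.13 ± 0.08 at 2300001 and 0.11 ± 0.09 at 2100001. The median log2 change was -0.05 over the 24 steps, 0.03 over the long arm and 0.00 over all windows.

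For mean fuzziness, 0 of 2326 windows passed (percent called 0), and the lowest adjusted p in the interval was 0.403. At an unadjusted p under 0.05, 12.1% of all windows and 1 of the 24 steps were called. The genotypes did not overlap in 10 of 24 steps, all lower in top1a-2, against 51.4% of all windows, 49.7% lower and 1.68% higher. Lower values in top1a-2 were spread over the genome, with a median change of -1.22 bp over all windows and -0.873 bp over the 24 steps. The largest decrease was at 2600001, with 38.3 and 36.9 bp in top1a-2, against 40.6 and 41.1 bp in Ler, a change of -3.25 ± 1.03 bp (SE) with a limma adjusted p of 0.403. The second was at 1850001, with -2.61 ± 1.35 bp. No step was higher in top1a-2 without overlap.

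For mean score, 4 of 2326 windows passed limma (percent called 0.172), none of them in the interval, where the lowest adjusted p was 0.596. At an unadjusted p under 0.05, 8.08% of all windows and 1 step were called in mean score. The genotypes did not overlap in mean score in 6 of the 24 steps, against 37.5% of all windows. Of these 6, 2 were higher and 4 lower in top1a-2, against 7.65% and 29.9% of all windows. For mean size, 6 windows passed (percent called 0.258), none in the interval, where the lowest adjusted p was 0.942, and at an unadjusted p under 0.05, 5.37% of all windows and none of the steps were called. Mean size was higher in top1a-2 without overlap in 7 of the 24 steps and lower in none, against 32.5% of all windows, 15.1% higher and 17.4% lower. The largest of these was at 1600001, with 145 and 145 bp in top1a-2, against 142 and 138 bp in Ler. The median change in mean size was 0.984 bp over the 24 steps and -0.227 bp over all windows. Without Ler replicate 1, 1 step passed in mean size, with a limma adjusted p of 0.0288, in a fit where the lone Ler library is assumed to vary like the top1a-2 pair.

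**Figure D4:**
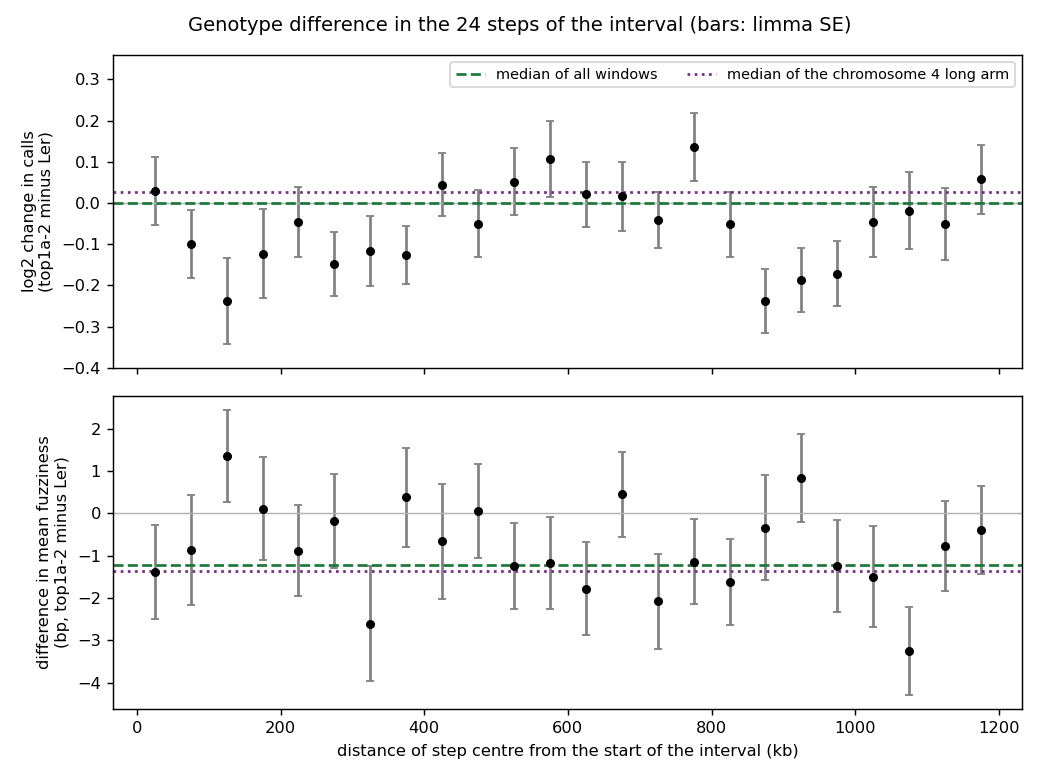
Difference of top1a-2 minus Ler in log2 calls relative to the library mean and in mean fuzziness (bp) for the 24 steps of the interval, by the distance of the step centre from its start (kb), with bars for the limma SE. Horizontal lines mark the median of all windows, which is 0.00 for calls and -1.22 bp for fuzziness, and the median of the chromosome 4 long arm.

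Individual positions recurred between libraries about as often within a genotype as between genotypes. Of the calls in the interval, 25.6% had a call within 20 bp in the other library of top1a-2, and 23.9% in the other library of Ler. Between the genotypes the share was 22.3% to 24.8%. After a shift of 5 kb, which keeps the density and breaks the alignment of positions, the shares were 12.0% within top1a-2, 11.3% within Ler and 10.5% to 11.9% between genotypes. Measured agreement was therefore 2.03 to 2.24 times the shifted level in the interval, and 1.89 to 2.01 times in the long arm. These are descriptions, since pairs of libraries share members.

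A call within 20 bp in all 4 libraries was found at 89 positions of the interval, and at 3 after the shift. That is 7.42 positions per 100 kb, against 9.20 in the pericentromere and 5.64 in the long arm. Of the 89, 37 lay in the first 400 kb. Their median fuzziness was 31 bp and their median score 0.805. The highest score was at 1564492 to 1564503, with 18.1 and 11.6 in top1a-2 and 12.5 and 7.75 in Ler. This position was unlike a nucleosome, with sizes of 38.9 and 45.4 bp in top1a-2, against 4.77 and 14 bp in Ler. In top1a-2, 99.8% and 99.9% of its votes came from the forward strand, against 75.9% and 63.1% in Ler. The next 4 positions, starting at 1817465, 2552161, 2195971 and 2008030, had mean scores of 2.73, 2.04, 1.98 and 1.96 and mean sizes of 114 to 145 bp.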

How the data were processed

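The sources of the samples and the protocol are the labels: gel-cut DNA near mononucleosome length, TruSeq libraries and an Illumina HiSeq2000. The columns are chromosome, position, fuzziness, size, confidence score and votes, per the file headers. The deposited score and votes are the authors' values, and their scaling, the aligner, the caller, its thresholds and the build were not given in the sources used here. There is 1 deposited list a library, so calls were taken as made separately. The last call on chromosome 4 lay 358 kb short of where the final gene ends in a table of the assembly TAIR10.1, so that table was not used for positions.

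Regions and steps were cut at fixed positions. Regions were compared per library with exact permutation tests, the interval and its references being paired within a library. Windows of 50 kb were fitted with limma 3.58.1 in R 4.3.3 with a variance trend. Calls were divided by the library mean and fitted as log2(level + 0.103), a pseudocount of 0.1 of the median level, which understates changes of sparse windows. The fit of calls left out windows empty in at least 3 libraries, and the other fits left out windows with fewer than 20 calls in any library. Shares of low and high scores, unequal votes and 130 to 160 bp calls were added after the data were seen. The steps named were the 3 highest and lowest in calls, fuzziness and score, those with the 2 largest changes without overlap in each direction, the 5 best-scored shared positions and the 3 longest empty stretches. Others were chosen after their values were seen. The interval, its references and the measures were chosen with earlier results of these data known. Alternatives changed the calls used, the bounds, the reference, the window, the scaling and the libraries.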

Additional observations from a re-analysis of the deposited data

How the results depend on the processing

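For most of the results given above, 475 values were recomputed under other choices. Of these, 446 kept their direction or, for the window fits, the number of steps inside the interval that passed, 28 turned round and 1 count moved. Another 425 were recomputed for the remaining comparisons, a few of which are given above. Of these 425, 33 turned round. The cause was not tested.

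Without calls below the lower quartile of score, the interval minus the long arm became -0.250 percentage points in calls under 100 bp and 0.0204 in median score. The interval minus the pericentromere became 29.0 gaps per Mb and -1.68 points in close neighbours. The first 400 kb minus the remainder became -11.6 gaps per Mb. Top1a-2 minus Ler became -0.0468 in median score and -2.25 bp in spacing. With calls of 50 to 250 bp only, top1a-2 minus Ler became -0.417 gaps per Mb and -0.00253 in median score. The interval minus the pericentromere became 0.0101 bp in mean fuzziness. With the interval widened by 100 kb at either end, it became -0.180 points in calls under 100 bp and -0.00700 in median score, and close neighbours against the pericentromere became -0.235 points. Without the 2 sparsest steps, it became -0.00566 in median score. The density ratio of the first 400 kb to the remainder became 1.01 without these steps and 1.02 also without the step of the lowest score.

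When each library was left out in turn, top1a-2 minus Ler ranged from -0.0204 to 0.215 calls per kb, from -0.0347 to 0.196 points in calls under 100 bp and from -0.0633 to 0.0673 in median score. It ranged from -1.25 to 2.75 bp in spacing, from -0.0690 to 2.95 points in close neighbours and from -0.542 to 1.41 points in calls above the 95th percentile of score. In that last measure the interval minus the long arm ranged from -0.00257 to 0.820 points, and close neighbours against the pericentromere from -0.380 to 0.340 points. The genotype difference changed sign without Ler replicate 2 in calls per kb, short calls, spacing, median score and high scores. It did so without top1a-2 replicate 1 in median score, close neighbours and high scores, and without top1a-2 replicate 2 in spacing. The comparison with the pericentromere changed sign without top1a-2 replicate 1 or Ler replicate 1, and that with the long arm without top1a-2 replicate 1. The steps that passed limma in mean size numbered 0 to 1, the 1 without Ler replicate 1.

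The titles give replicate numbers but no batch or day. Unequal votes followed the numbers, as given above, and a shared batch was not tested. Deviations of same-numbered libraries correlated at 0.141 for calls, 0.0573 for fuzziness, 0.342 for score and 0.0613 for size. With a replicate block, no step of the interval passed in any of the 4 window fits, and the difference in narrow calls was 2.73 points within number 1 and 1.49 within number 2, a mean of 2.11. Over all windows, 40 passed in mean score with the replicate block, against 4 without.

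Counts over all windows, which are not among the values tallied above, were unstable. In mean score they were 9 with 10 kb windows, 0 without low scores, 16 after division by the library median, 18 without top1a-2 replicate 1, 7 without its replicate 2, 1 without Ler replicate 1 and 2 without its replicate 2, against 4. In mean size they were 1, 0, 1 and 2 with 10 kb windows, without low scores, without the variance trend and without the filter, 1 after centring, and 12 and 13 without Ler replicates 1 and 2, against 6. For calls they were 2 without the variance trend and 6 without Ler replicate 1, against 0, and for fuzziness at most 2, against 0.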
